A study of Mus musculus with 12 samples.

Results

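The genes described here are 31 that mark dividing cells, in C2C12 muscle cultures of a wild-type line (WT) and of a line with a genetically encoded calcium indicator (RGECO). They were taken by gene name from the 78298 genes of the deposited tables, and all 31 were found. By the textbook phase of their products they form 12 G1/S genes, which act in entry into S phase and in DNA synthesis, and 19 G2/M genes, which act in G2, mitosis and cytokinesis. All 31 passed the filter on low counts that left 13318 genes for testing.

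C2C12 is an established line of mouse myoblasts that fuses into contractile myotubes when growth factors are lowered. Both lines were cast on a gelatin hydrogel carrying methacrylate groups and were kept in differentiation for 14 days. The medium of both held 10% inactivated horse serum, IGF-1 at 50 ng/ml and aminocaproic acid at 1 mg/ml, so the 2 groups share every treatment and differ by the line alone, as far as the labels say. The labels give neither the promoter that drives the indicator nor whether RGECO is 1 clone, and they do not say that replicates were separate cultures. What the p-values weigh is thus the scatter among these libraries, and part or all of it may be technical. There were 6 WT libraries with 9370322 to 11744314 counts and 6 RGECO libraries. RGECO replicate 4 held 825 counts in 252 genes and 0 counts in every one of the 31 genes, and it is left out below unless all 12 libraries are named. The other 5 RGECO libraries held 5881622 to 11926220 counts, with the fewest in replicate 5.

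A cell that leaves the cell cycle to form muscle shuts both phases down. The retinoblastoma proteins hold E2F factors at the promoters of G1/S genes until cyclin D and cyclin E kinases release them. The DREAM complex represses G2/M genes through a promoter element called the cell cycle genes homology region (CHR), and in cycling cells MYB and FOXM1 activate the same genes, often together with NF-Y bound at CCAAT boxes. In C2C12 cultures a fraction of cells, called reserve cells, stays mononucleate beside the myotubes and can divide again. In bulk RNA, fewer cells of a type and less RNA per cell cannot be told apart.

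The culture markers give the setting of these values. All 10 skeletal muscle markers were tested, and their summed TPM (transcripts per 1000000, a level corrected for transcript length) was 12023 to 14073 in WT and 13376 to 18978 in RGECO, with 1 higher and 2 lower in RGECO. The 8 myoblast and reserve cell markers summed to 2567 to 3525 TPM in WT and 3306 to 4356 TPM in RGECO, with 1 higher and 2 lower in RGECO. Of 10 fibroblast markers 7 were tested, 4 were lower and 1 higher in RGECO, their sum was 1469 to 2593 TPM in WT and 1072 to 1526 TPM in RGECO, and Tcf21 was at 0. Of 5 smooth muscle markers 3 were tested and 1 was lower, with sums of 1226 to 1548 TPM in WT and 839 to 1435 TPM in RGECO. None of 6 endothelial markers passed the filter (sums of 0 to 0.353 TPM in WT and 0.156 to 0.589 TPM in RGECO, Tie1 and Emcn at 0). Of 8 leukocyte markers 1 was tested (20.9 to 31.4 TPM in WT, 18.3 to 40.4 TPM in RGECO, Adgre1 at 0), and of 7 neuronal and glial markers 3 were tested and 1 was higher (9.69 to 19.4 TPM in WT, 17.5 to 37.2 TPM in RGECO, Rbfox3 and Snap25 at 0). In these counts, higher and lower mean past the edgeR threshold given below. By that threshold 3.42% of all genes tested were higher and 4.93% lower in RGECO. The part of these marker shifts in the differences below was not tested.

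G2/M genes had lower mean levels in RGECO, and G1/S genes lay on both sides of WT. All 19 G2/M genes had a negative fold change in CPM (18 of 19 on a TPM scale, where Cenpf was positive), and 6 of them fell: Ccnb1, Cenpa, Aurka, Aurkb, Kif23 and Plk1, to between 0.559 and 0.654 of the WT level. Of the 12 G1/S genes, Ccne1 alone was called and rose 1.65-fold, while 5 of 12 fold changes were positive and 7 negative. The median log2 fold change (RGECO over WT) was -0.55 for G2/M genes, -0.07 for G1/S genes and -0.01 over all genes tested. Calls rest on the quasi-likelihood F test of edgeR at an adjusted p of 0.05, with Benjamini-Hochberg adjustment over all genes tested. In that test 8.35% of all genes were called, 3.42% higher and 4.93% lower in RGECO, so 1 call among 12 G1/S genes lies near the share over all genes. On log2(TPM + 1) tested with limma, 2.70% of all genes were higher and 2.00% lower, and the medians were 0.18 for G1/S genes, -0.34 for G2/M genes and 0.09 over all genes, so the sign of the G1/S median turned. The difference between the phases was not tested.

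**Figure D1:**
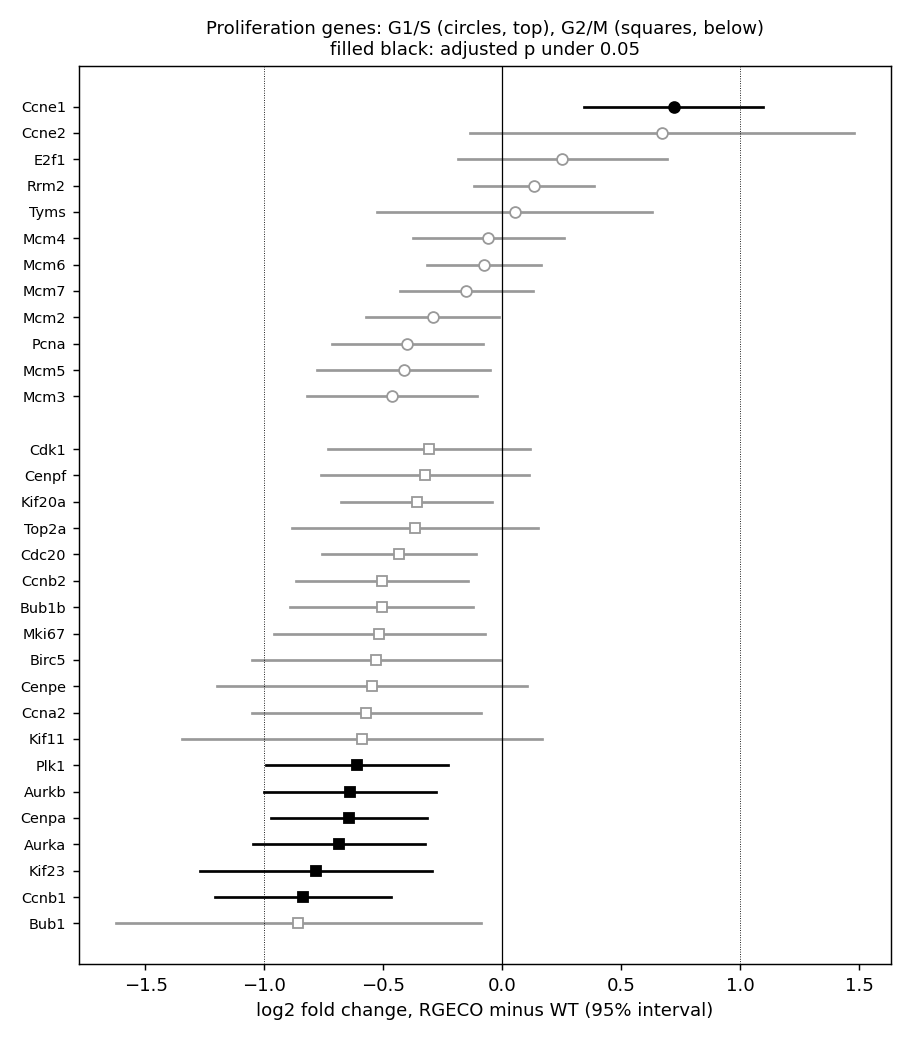
Log2 fold changes (RGECO over WT) of the 31 genes with 95% intervals, G1/S genes as circles above and G2/M genes as squares below, filled where the adjusted p passed 0.05. All 19 squares lie left of 0 on this count scale (Cenpf was positive on the TPM scale), from -0.31 to -0.86, and the circles lie on both sides, from -0.47 to 0.72.

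Whether a 95% interval lies inside a 2-fold change depends on the size of the fold change as well as on the width of the interval. The interval lay inside a 2-fold change for 10 of 12 G1/S genes (83.3%; Ccne1 and Ccne2 were the exceptions) and for 10 of 19 G2/M genes (52.6%), against 74.0% of all genes tested. At an unadjusted p under 0.05, 14 G2/M genes were lower and 0 higher, while 4 G1/S genes were lower and 1 higher, against 12.4% of all genes lower and 9.70% higher. Levels in CPM (counts per 1000000, scaled between libraries) did not overlap between the lines for 4 G2/M genes, all lower in RGECO, and for 1 G1/S gene, higher in RGECO. Over all genes tested, 7.97% had levels that did not overlap: 4.50% had RGECO wholly below WT and 3.47% wholly above. The 1 of 12 G1/S genes lies near that share. In TPM, 2 G2/M genes and 1 G1/S gene lay wholly below WT and 1 G1/S gene wholly above. Over all 13318 genes, 289 lay wholly below and 457 wholly above in TPM.

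Ccne1 encodes cyclin E1, which activates Cdk2 at the G1/S transition. It lies at chr7:38097984-38107534 on the minus strand of GRCm38. Its level in WT had a lowest value of 5.81, a median of 7.57 and a highest value of 10.7 CPM, and the RGECO libraries (replicates 1, 2, 3, 5 and 6, in this order throughout) were at 11.3, 13.6, 11.7, 13.8 and 14.2 CPM. Every RGECO library lay above every WT library. The means were 7.85 ± 1.62 CPM (SD, n = 6) and 12.9 ± 1.33 CPM (SD, n = 5), and the log2 fold change was 0.72 ± 0.18 (SE; edgeR adjusted p = 0.0185). Per transcript length it was 5.00 ± 0.632 TPM in WT and 8.96 ± 0.698 TPM in RGECO. The call was kept without any 1 library and was lost with no filter on low counts (adjusted p = 0.0588) and with a replicate block (0.0641).

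Ccne2, the other E-type cyclin, had a like fold change with a wider error. WT ranged from 1.56 through a median of 4.88 to 11.6 CPM and RGECO from 6.05 to 10.8 CPM, so the lines overlapped. Its log2 fold change was 0.67 ± 0.38 (SE), with a 95% interval of -0.14 to 1.48 (adjusted p = 0.331, edgeR). It was 1.05 without WT replicate 6 (adjusted p = 0.0698), and it passed at 1.20 (0.00254) once the mitochondrial share was a covariate and at 1.37 (0.00313) once Malat1 was. In those fits 3133 and 2771 of the 13318 genes were called. The highest WT library of Ccne2 was 7.40 times its lowest, the widest WT range of all 31 genes. The log2 ratio of Ccne2 to Ccne1 in TPM averaged -0.52 in WT (SD 0.49, n = 6) and -0.47 in RGECO (SD 0.87, n = 5; exact two-sided permutation test, adjusted p = 0.965 over 9 ratios and shares).

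E2f1 is the activator of the S-phase promoters. It was at 23.9 ± 5.42 CPM in WT and 28.6 ± 9.55 CPM in RGECO (log2 fold change 0.25 ± 0.21 SE, adjusted p = 0.532, edgeR). RGECO replicate 5 stood at 45.0 CPM, against 19.9 to 26.9 CPM in the other 4 RGECO libraries. Without that library the log2 fold change was 0.04 (adjusted p = 0.931, edgeR).

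Mcm2 to Mcm7 form the ring that licenses origins and unwinds DNA. None of the 6 passed the test, and all 6 fold changes in CPM were negative, from -0.47 for Mcm3 to -0.06 for Mcm4, while on log2(TPM + 1) Mcm6 and Mcm7 were positive, at 0.37 and 0.08. Mcm4 was at 0.03 without RGECO replicate 5. With the mitochondrial share as a covariate, Mcm2 and Mcm3 passed as lower (adjusted p = 0.0143 and 0.0346, edgeR). They also passed as lower with Malat1 as a covariate (0.0298 and 0.0322). Mcm2 was at 40.0 ± 7.28 CPM in WT and 32.6 ± 1.72 CPM in RGECO (log2 fold change -0.29 ± 0.13 SE, adjusted p = 0.201, edgeR). Mcm3 was at 16.3 ± 2.41 and 11.7 ± 2.17 CPM (adjusted p = 0.107, edgeR), and Mcm5 at 10.2 ± 1.67 and 7.66 ± 0.728 CPM (adjusted p = 0.161, edgeR). In TPM, Mcm5 lay wholly lower in RGECO, at 3.39 to 4.14 against 4.29 to 5.25 TPM, as did 289 of the 13318 genes tested. For Mcm4, Mcm6 and Mcm7 the 95% intervals ran from -0.43 at the lowest to 0.26 at the highest on the log2 scale. The 6 genes summed to 163 ± 13.4 CPM in WT (154 to 189) and 142 ± 4.41 CPM in RGECO (136 to 147).

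The products are used in equal numbers in the ring, but the transcripts differed in level. In WT, Mcm7 took 29.7% ± 2.14 (SD, n = 6) of the summed TPM, Mcm6 22.8% ± 2.39, Mcm2 20.9% ± 3.79, Mcm4 10.9% ± 2.02, Mcm3 9.28% ± 0.749 and Mcm5 6.44% ± 0.613. Mcm6 and Mcm2 did not differ beyond their spread, and neither did Mcm4 and Mcm3. In RGECO the Mcm5 share was 4.90% ± 1.28 (SD, n = 5; exact permutation p = 0.0238, adjusted p = 0.214 over 9 values), and the Mcm6 share was 28.8% ± 9.11 (p = 0.0866, adjusted p = 0.357). RGECO replicate 5 alone had an Mcm6 share of 44.5%. The difference of 6.05 percentage points was 2.14 without it, and 1.96 when shares were taken from estimated counts. No share or ratio passed after adjustment, and the smallest p that the 462 assignments of libraries allow is 0.00216.

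Pcna, the sliding clamp of the replicative polymerases, was at 50.9 ± 5.54 CPM in WT and 38.5 ± 8.10 CPM in RGECO (log2 fold change -0.40 ± 0.15 SE, adjusted p = 0.120, edgeR). With Malat1 as a covariate it passed as lower, at -0.43 (adjusted p = 0.0463, edgeR). WT replicate 3, at 39.8 CPM, was the only WT library inside the RGECO range of 24.9 to 45.9 CPM. Pcna shares reads with a processed copy, Pcna-ps2, to which 904 WT and 624 RGECO counts were assigned, so its level is uncertain. Rrm2 and Tyms supply nucleotides, as the small subunit of ribonucleotide reductase and as thymidylate synthase. Rrm2 had the highest mean TPM of the G1/S genes, with 92.8 ± 25.9 TPM in WT and 111 ± 20.9 TPM in RGECO. In CPM it ran from 130 through a median of 148 to 184 in WT and was at 187, 170, 157, 144 and 185 in RGECO. The lines overlapped, and the log2 fold change was 0.13 ± 0.12 (SE; edgeR adjusted p = 0.563). Tyms had the lowest mean TPM of this phase, with 3.04 TPM in WT and 4.86 TPM in RGECO on average. It ran from 2.13 through 3.34 to 4.27 CPM in WT and was at 3.49, 3.64, 3.17, 4.03 and 2.42 CPM in RGECO (log2 fold change 0.05 ± 0.27 SE, adjusted p = 0.945, edgeR), so its levels overlapped almost fully.

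Ccnb1 encodes cyclin B1, the partner of Cdk1 at entry into mitosis, and lies at chr13:100778650-100786570 on the minus strand of GRCm38. WT ran from 18.6 through a median of 24.0 to 31.5 CPM, and RGECO was at 15.7, 16.9, 13.4, 13.0 and 11.3 CPM. No RGECO library reached the lowest WT library. The means were 25.1 ± 5.35 CPM (SD, n = 6) and 14.1 ± 2.24 CPM (SD, n = 5), which is a fold of 0.559, or -0.84 ± 0.17 (SE) on the log2 scale (edgeR adjusted p = 0.00659). This was the smallest adjusted p of the 31 genes, and the call was kept without any 1 library. It missed the threshold with a replicate block (adjusted p = 0.0519) and on log2(TPM + 1) with no filter on low values (0.0523). A pseudogene copy, Ccnb1-ps, held 19.4 counts over the WT and 4.32 over the RGECO libraries.

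The other cyclins of this phase and Cdk1 had smaller fold changes than Ccnb1. Ccnb2, the second B-type cyclin, was at 16.6 ± 3.40 CPM in WT and 11.7 ± 1.13 CPM in RGECO (log2 fold change -0.51 ± 0.17 SE, adjusted p = 0.0809, edgeR), and passed when WT replicate 1 was left out (0.0439). Ccna2, cyclin A2, which acts in S phase and G2, differed by -0.57 ± 0.23 (SE) on the log2 scale (edgeR adjusted p = 0.144). Cdk1, the mitotic kinase itself, had the highest mean TPM of the G2/M genes, with 30.6 ± 6.60 TPM in WT and 29.3 ± 8.44 TPM in RGECO. It ran from 21.0 through 25.4 to 31.3 CPM in WT and was at 15.02, 26.1, 25.9, 12.6 and 25.4 CPM in RGECO. RGECO replicates 1 and 5 lay below WT and the other 3 within it (log2 fold change -0.31 ± 0.20 SE, adjusted p = 0.402, edgeR). The log2 ratio of Ccnb2 to Ccnb1 in TPM averaged -0.69 in WT (SD 0.39, n = 6) and -0.26 in RGECO (SD 0.44, n = 5; exact permutation p = 0.119, adjusted p = 0.357).

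Among the mitotic kinases, Aurka, Aurkb and Plk1 fell. Aurka encodes Aurora A, which acts at centrosomes and spindle poles, and lies at chr2:172356190-172370535 on the minus strand. It ran from 12.5 through 16.6 to 21.8 CPM in WT and was at 11.7, 8.55, 11.1, 9.63 and 11.1 CPM in RGECO. All RGECO libraries lay below WT (fold 0.621, log2 fold change -0.69 ± 0.17 SE, adjusted p = 0.0192, edgeR). Without WT replicate 5 or RGECO replicate 2 the adjusted p was 0.0502 or 0.0632.

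Aurkb encodes Aurora B, the kinase of the chromosomal passenger complex, and lies at chr11:69045647-69051664 on the plus strand. It ran from 11.9 through 18.0 to 19.3 CPM in WT and was at 8.72, 12.6, 12.4, 9.80 and 11.2 CPM in RGECO. WT replicate 1 lay inside the RGECO range and the other 5 WT libraries above it (fold 0.642, log2 fold change -0.64 ± 0.17 SE, adjusted p = 0.0282, edgeR). The call was lost without WT replicate 3, 4, 5 or 6 (adjusted p = 0.0670, 0.0561, 0.0743 and 0.0543) and without RGECO replicate 1, 5 or 6 (0.0694, 0.0553 and 0.0602). The log2 ratio of Aurkb to Aurka in TPM averaged -0.01 in WT (SD 0.29, n = 6) and 0.29 in RGECO (SD 0.44, n = 5; exact permutation test, adjusted p = 0.374).

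Plk1 encodes Polo-like kinase 1, which drives mitotic entry and cytokinesis, and lies at chr7:122159439-122169873 on the plus strand. It ran from 9.51 through 12.2 to 16.6 CPM in WT and was at 8.18, 9.05, 8.55, 8.40 and 6.77 CPM in RGECO, again with no overlap. Its fold was 0.654 (log2 fold change -0.61 ± 0.18 SE, adjusted p = 0.0469, edgeR), and it was the call closest to the threshold. It was lost without WT replicate 1, 2, 3, 4 or 5 (adjusted p = 0.0777, 0.0705, 0.118, 0.10 and 0.0653) and without RGECO replicate 1, 2, 3, 5 or 6 (0.0796, 0.0834, 0.0774, 0.0658 and 0.121). DESeq2 size factors in the same edgeR fit gave 0.0543.

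Cenpa encodes the histone H3 variant that marks centromeres and lies at chr5:30666777-30674830 on the plus strand. It ran from 14.7 through 18.2 to 21.9 CPM in WT and was at 10.2, 12.2, 10.8, 10.7 and 13.5 CPM in RGECO, with every RGECO library below WT. Its fold was 0.640 and its log2 fold change -0.64 ± 0.15 (SE, adjusted p = 0.0158, edgeR). The call was kept without any 1 library and was lost with all 12 libraries (adjusted p = 0.0583) and on log2(TPM + 1) (limma, 0.222). Cenpe and Cenpf, a kinetochore motor and a kinetochore protein, had log2 fold changes of -0.55 ± 0.31 and -0.32 ± 0.21 (SE). Cenpe had the lowest mean TPM of the G2/M genes, with 2.66 ± 1.71 TPM in WT and 2.11 ± 1.16 TPM in RGECO. It ran from 6.43 through 11.5 to 19.3 CPM in WT and was at 6.98, 8.06, 7.20, 4.38 and 12.9 CPM in RGECO, and the lines overlapped (adjusted p = 0.326, edgeR).

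The checkpoint and anaphase genes were lower on average without passing the test. Bub1, a spindle checkpoint kinase, had the largest fold change in size of the 31, with 10.0 ± 4.91 CPM in WT and 5.49 ± 2.17 CPM in RGECO (log2 fold change -0.86 ± 0.36 SE, adjusted p = 0.170, edgeR). Its WT libraries spanned 3.97-fold, the widest range among the G2/M genes. Bub1b, which encodes the checkpoint protein BubR1, had -0.51 ± 0.18 (adjusted p = 0.103, edgeR), and Cdc20, the activator of the anaphase-promoting complex, had -0.43 ± 0.15 (adjusted p = 0.0940, edgeR). Birc5, which encodes survivin, a partner of Aurora B, had -0.53 ± 0.25 (adjusted p = 0.217, edgeR).

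Of the 3 Kif genes, Kif23 fell. It encodes MKLP1, a motor of the central spindle in cytokinesis, and lies at chr9:61915905-61946774 on the minus strand. It ran from 8.20 through 13.0 to 19.1 CPM in WT and was at 7.91, 9.05, 7.20, 5.43 and 10.4 CPM in RGECO. WT replicate 1 lay inside the RGECO range (fold 0.581, log2 fold change -0.78 ± 0.23 SE, adjusted p = 0.0455, edgeR). The call was lost without WT replicate 2, 3, 4, 5 or 6 (adjusted p = 0.0537, 0.0639, 0.0954, 0.0672 and 0.0870) and without RGECO replicate 1, 2, 3 or 5 (0.0870, 0.0747, 0.0991 and 0.0925). Kif11, the bipolar spindle motor, and Kif20a, a cytokinesis motor, had log2 fold changes of -0.59 ± 0.35 and -0.36 ± 0.15 (SE; adjusted p = 0.368 and 0.165, edgeR).

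Mki67 and Top2a are used as general markers of cycling cells, as the chromosome surface protein Ki-67 and DNA topoisomerase II alpha. Mki67 was at 70.7 ± 21.0 CPM in WT and 49.3 ± 10.4 CPM in RGECO (log2 fold change -0.52 ± 0.21 SE, adjusted p = 0.152, edgeR), and passed when WT replicate 1 was left out (0.0414). Top2a was at 56.0 ± 19.5 and 43.4 ± 11.6 CPM (log2 fold change -0.37 ± 0.24 SE, adjusted p = 0.420, edgeR). Both overlapped between the lines.

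**Figure D2:**
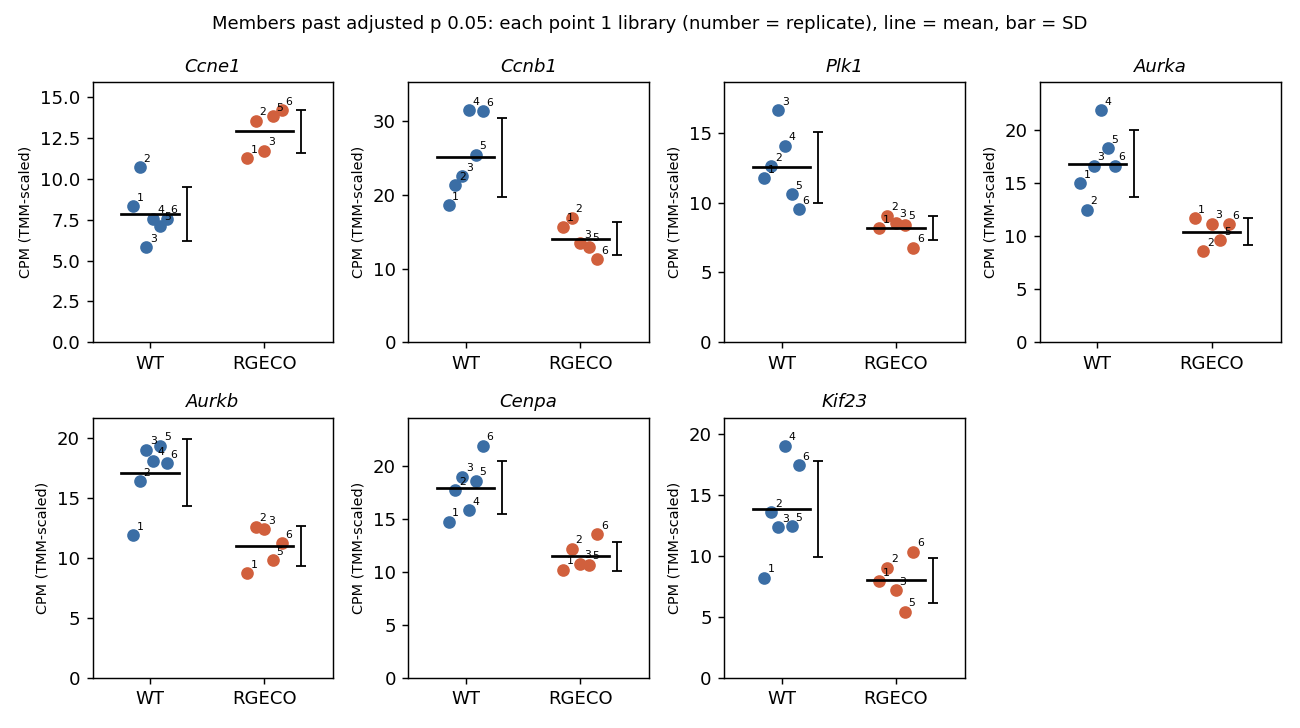
CPM of the 7 called genes in each library (points), with the mean (line) and SD (bar) of 6 WT and 5 RGECO libraries. Ccne1 is higher in every RGECO library, Ccnb1, Plk1, Aurka and Cenpa are lower in every one, and Aurkb and Kif23 overlap through WT replicate 1.

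The number of G2/M calls rested on which libraries were used. It was 2 without WT replicate 5 (Ccnb1 and Cenpa), 3 when WT replicate 3 or 4 was dropped, 3 again on dropping RGECO replicate 1, 2 or 5, and 7 without WT replicate 1. On log2(TPM + 1) tested with limma, 1 of the 19 fell (Ccnb1) and Cenpf had a positive sign at 0.06, while Aurkb was at -0.25 and Bub1 at -0.35. Leaving out 1 library moved some uncalled genes by more than 1.5 times: Cenpe was at -0.34 and Cenpf at -0.21 without WT replicate 4, Kif11 at -0.36 and Top2a at -0.24 without WT replicate 6, and Cdk1 at -0.18 without RGECO replicate 5.

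The WT libraries had a wider range in the sum of G2/M than of G1/S genes. The 12 G1/S genes summed to 381, 415, 391, 399, 425 and 439 CPM in WT replicates 1 to 6 and to 402, 405, 390, 392 and 425 CPM in RGECO. The 19 G2/M genes summed to 314, 383, 492, 579, 478 and 565 CPM in WT and to 321, 370, 322, 255 and 376 CPM in RGECO. WT replicates 1 and 2 thus lay within or just above the RGECO values for G2/M, and the other 4 WT libraries above all of them. The means were 408 ± 21.9 CPM in WT and 403 ± 14.0 CPM in RGECO for G1/S, and 469 ± 103 and 329 ± 48.5 CPM for G2/M, a ratio of 0.702. The ratio of the G2/M to the G1/S sum was 1.15 ± 0.236 (SD, n = 6) in WT, from 0.824 in replicate 1 to 1.45 in replicate 4, and 0.815 ± 0.102 (SD, n = 5) in RGECO, from 0.651 in replicate 5 to 0.912 in replicate 2.

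**Figure D3:**
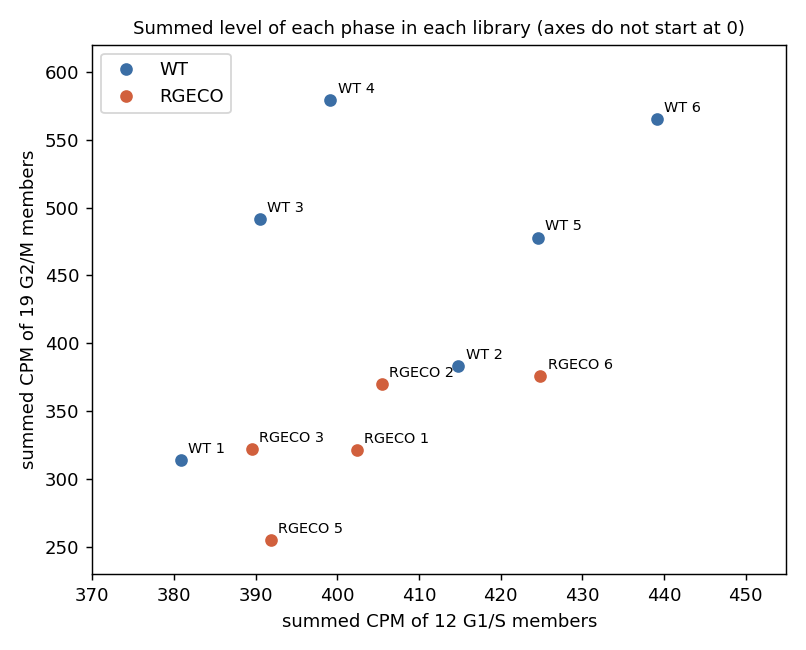
Summed CPM of the 12 G1/S genes (x) against the 19 G2/M genes (y) in each library, axes not starting at 0. WT spans 1.15-fold along x and 1.85-fold along y, and WT replicates 1 and 2 (314 and 383 CPM of G2/M) sit beside the RGECO libraries (255 to 376 CPM).

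The same libraries were low or high for most G2/M genes. WT replicate 1 was the lowest WT library for 15 of the 19, WT replicate 4 the highest for 8 and replicate 6 for 6, and RGECO replicate 5 was the lowest RGECO library for 11. Among G1/S genes the lowest WT library varied, with each of the 6 lowest for 1 to 3 genes. The coefficient of variation in WT had a median of 21.6% over G2/M genes and 15.7% over G1/S genes, and in RGECO of 17.9% and 16.7%. Measures of RNA quality moved with part of this in both lines. Mitochondrial transcripts made up 0.754%, 0.204%, 0.530%, 1.68%, 1.16% and 1.59% of counts in WT replicates 1 to 6, highest in replicates 4, 6 and 5. In RGECO they made up 0.298% to 1.33% and rose over replicates 5, 1, 3, 2 and 6, the order of the G2/M sum. The nuclear RNA Malat1 made up 0.430%, 0.156%, 0.566%, 0.784%, 0.641% and 0.898% of counts in WT replicates 1 to 6. Like the WT G2/M sum, it was lowest in replicates 1 and 2 and highest in replicates 4 and 6. In RGECO Malat1 made up 0.180% to 0.645%, lowest in replicate 3 and highest in replicate 6, and did not keep the order of the G2/M sum. The part of these 2 shares in the G2/M difference was not tested. With either share as a covariate 8 G2/M genes were lower (the 6 called, Cdc20 and Bub1b). The G2/M median log2 fold change was then -0.46 (mitochondrial) or -0.39 (Malat1), against -0.55 without a covariate. Kif11 was at -0.15 or -0.05 and Top2a at -0.13 or -0.04 on the log2 scale. Over all 13318 genes, 3133 (mitochondrial) or 2771 (Malat1) were called, of which 1519 or 1376 were lower in RGECO.

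**Figure D4:**
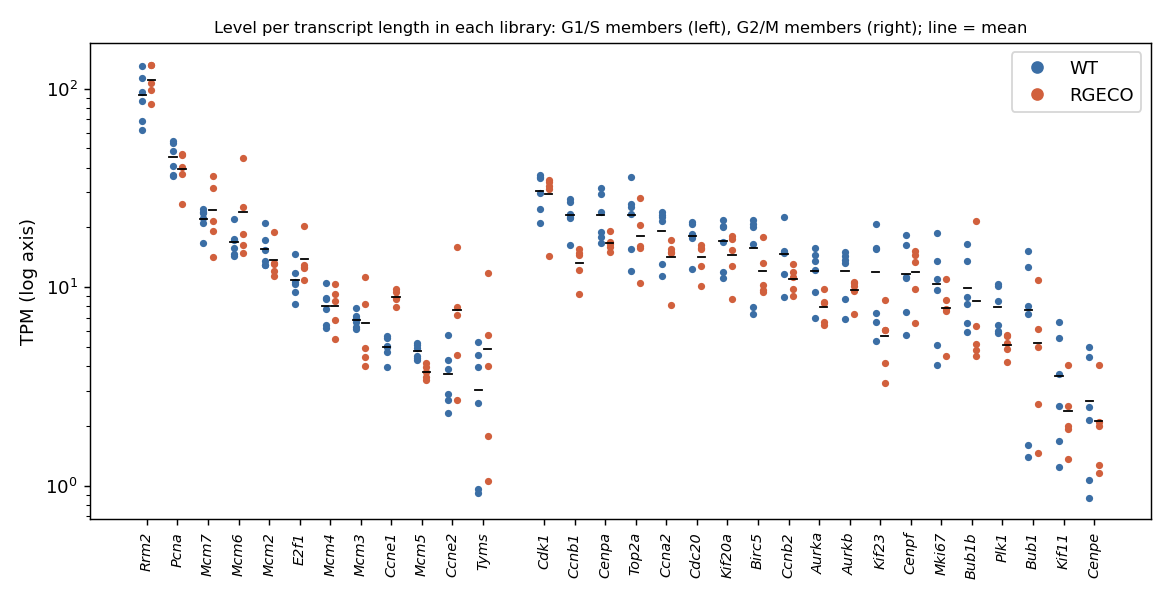
TPM of the 31 genes in each library on a log axis, G1/S and G2/M genes apart, with WT and RGECO libraries as separate points. Rrm2 is the highest of the G1/S genes (92.8 TPM in WT on average) and Cdk1 of the G2/M genes (30.6 TPM), while Tyms and Cenpe are the lowest.

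Other genes of both phases were taken from lists chosen by name, and 2 of them were called. Of 36 other G1/S genes (licensing, polymerase, nucleotide and chromatin assembly genes) 35 were tested and 0 called by edgeR, with 4 lower and 0 higher at an unadjusted p under 0.05 and a median log2 fold change of -0.15. Of 53 other G2/M genes (kinetochore, spindle, condensin and cytokinesis genes) all were tested and 51 had a negative sign, against 6860 of all 13318 genes. Of the 53, 2 fell and 0 rose, with a median of -0.37. Over all genes tested 4.93% were lower, which is near that count as a share. At an unadjusted p under 0.05, 19 were lower and 0 higher, against 12.4% and 9.70% of all genes. The 2 that fell were Foxm1 and Hjurp. Foxm1, the activator of G2/M promoters, was at 27.0 ± 6.60 CPM in WT and 16.0 ± 1.11 CPM in RGECO (log2 fold change -0.75 ± 0.17 SE, adjusted p = 0.00925, edgeR). Hjurp, the chaperone that loads the Cenpa product at centromeres, was at 107 ± 2.53 CPM in WT and 73.4 ± 9.50 CPM in RGECO (log2 fold change -0.54 ± 0.10 SE, adjusted p = 0.00313, edgeR), with no overlap between the lines. On log2(TPM + 1) Foxm1 did not pass (adjusted p = 0.241, limma), and with all 12 libraries Hjurp did not (0.133, edgeR).

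Upstream regulators were also taken from lists chosen by name, and 2 of them were called. None of 15 Rb and DREAM genes was called by edgeR (1 lower and 1 higher at an unadjusted p under 0.05, median log2 fold change -0.06), and none of 15 genes of the anaphase-promoting complex and its regulators (0 at an unadjusted p under 0.05, median 0.03). Of 13 CDK inhibitor, D cyclin and G1 kinase genes 11 were tested, 1 rose and 1 fell, with 4 higher and 2 lower at an unadjusted p under 0.05. Over all genes tested 8.35% were called, so 0 calls in a list of 15 is not a result about that list. Ccnd1, cyclin D1, which with Cdk4 or Cdk6 phosphorylates Rb, ran from 96.7 to 127 CPM in WT and was at 276, 216, 191, 284 and 195 CPM in RGECO (2.13-fold, log2 fold change 1.09 ± 0.13 SE, adjusted p = 7.58e-05, edgeR). Cdkn1c, which encodes the CDK inhibitor p57, was at 5.50 ± 3.95 CPM in WT and 1.77 ± 0.932 CPM in RGECO (log2 fold change -1.64 ± 0.48 SE, adjusted p = 0.0471, edgeR). The Ccnd1 call was kept in all 22 alternatives, and that of Cdkn1c was lost in 11, of which 8 left out 1 library: WT replicates 1, 2, 4 and 6 (adjusted p = 0.0900, 0.1002, 0.0547 and 0.0584) and RGECO replicates 1, 3, 5 and 6 (0.105, 0.107, 0.0658 and 0.108).

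The elements named above were counted in the promoters of both phases. RefSeq promoters (GRCm38.p6, 250 bases before to 50 after each start) were searched on both strands for the CHR core TTTGAA, for E2F as TTTCCCGC, TTTCGCGC, TTTGCCGC or TTTGGCGC, and for CCAAT, the NF-Y box. The CHR core was found at 12 of 16 matched G2/M starts (75.0%), 1 of 11 G1/S starts (9.09%) and 17.9% of all 32851 promoters. An E2F match was found at 4 G1/S starts (36.4%; Mcm3, Mcm5, Mcm6 and Mcm7), at 1 G2/M start (6.25%; Cdk1) and in 2.26% of all promoters. CCAAT was found at 15 G2/M starts (93.8%), 8 G1/S starts (72.7%) and in 37.4% of all promoters. A match is a description of letters and not a bound site. Only these exact letters were searched, so any other form of an element was not counted. Of the 6 called G2/M genes, Aurka, Cenpa, Kif23 and Plk1 held the letters TTTGAA and Ccnb1 did not, which does not show that Ccnb1 lacks a CHR. Aurkb had no matched promoter and was not searched. The core was also found in uncalled G2/M genes.

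These 250 bases before the start are shown for the called gene with the smallest adjusted p in each phase and for the uncalled gene of highest TPM in each, with matches in capitals and each read 5′ to 3′ on its gene's strand. Ccne1 is at chr7:38107491-38107740, minus strand, Rrm2 at chr12:24708004-24708253, plus strand, Ccnb1 at chr13:100786487-100786736, minus strand and Cdk1 at chr10:69352913-69353162, minus strand.
Ccne1: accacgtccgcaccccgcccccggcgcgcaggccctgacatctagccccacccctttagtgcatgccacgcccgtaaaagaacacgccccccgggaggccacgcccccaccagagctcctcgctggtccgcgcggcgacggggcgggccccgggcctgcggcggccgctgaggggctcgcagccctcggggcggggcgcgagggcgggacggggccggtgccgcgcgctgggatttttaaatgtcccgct
Rrm2: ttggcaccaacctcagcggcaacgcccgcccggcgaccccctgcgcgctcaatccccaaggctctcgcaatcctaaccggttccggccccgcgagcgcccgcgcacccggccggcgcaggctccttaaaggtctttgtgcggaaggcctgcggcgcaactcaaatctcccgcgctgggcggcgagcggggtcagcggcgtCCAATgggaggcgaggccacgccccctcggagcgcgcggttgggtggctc
Ccnb1: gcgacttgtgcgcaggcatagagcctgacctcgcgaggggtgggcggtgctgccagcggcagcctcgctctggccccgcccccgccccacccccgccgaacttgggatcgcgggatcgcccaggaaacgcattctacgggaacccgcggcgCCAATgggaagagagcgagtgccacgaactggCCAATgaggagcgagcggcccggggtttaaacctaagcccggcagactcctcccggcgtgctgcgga
Cdk1: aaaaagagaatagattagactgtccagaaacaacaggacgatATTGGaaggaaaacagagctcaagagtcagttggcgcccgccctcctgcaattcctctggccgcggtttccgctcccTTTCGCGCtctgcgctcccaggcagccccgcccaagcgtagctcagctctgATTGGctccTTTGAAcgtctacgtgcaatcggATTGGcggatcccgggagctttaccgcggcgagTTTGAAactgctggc
Ccne1, the gene that rose, held none of the motifs in this stretch. Rrm2 held 1 CCAAT box, 50 bases before the start. Ccnb1 held a pair of CCAAT boxes 99 and 67 bases before the start in the same orientation. Cdk1 held 3 CCAAT boxes at 208, 80 and 48, CHR cores at 71 and 15 and an E2F match at 131 bases before the start.

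The CHR cores of the other 4 called G2/M genes lay just after the RefSeq start and are shown in 30 bases with the core in capitals. They are at chr2:172370521-172370550, minus strand, chr5:30666890-30666919, plus strand, chr9:61946780-61946809, minus strand, and chr7:122159453-122159482, plus strand, in this order.
Aurka: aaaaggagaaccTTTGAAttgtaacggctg
Cenpa: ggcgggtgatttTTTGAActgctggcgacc
Kif23: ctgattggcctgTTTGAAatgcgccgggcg
Plk1: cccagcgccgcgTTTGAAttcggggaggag
The cores began 32, 16, 2 and 30 bases after the start. In Cdk1, Ccnb1, Aurka and Ccnb2 a pair of CCAAT boxes in the same orientation stood 31 to 33 bases apart, which held for 25% of the matched G2/M starts, 0 G1/S starts and 0.794% of all promoters. That spacing was chosen after the sequences were seen.

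**Figure D5:**
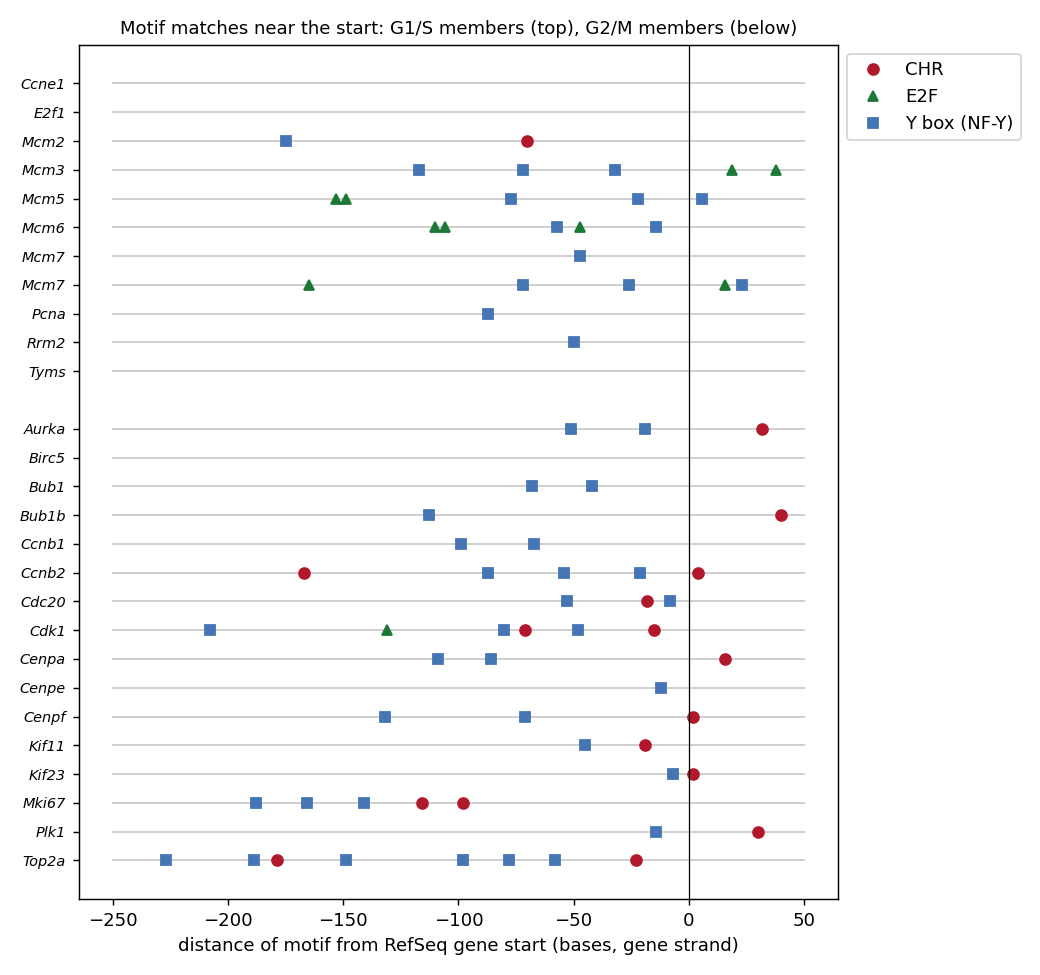
Distance in bases of each motif match from the RefSeq start of the matched genes, CHR as circles, E2F as triangles and CCAAT (labelled Y box) as squares. CHR cores are marked in 12 of 16 G2/M starts and 1 of 11 G1/S starts, and E2F matches in 4 G1/S starts.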

How the data were processed

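The submitters deposited 1 table of estimated counts per gene and 1 of TPM per gene over 12 libraries, per the file headers. The deposited TPM values are scaled by the authors to transcript length and library. The submitters' processing notes name STAR, Salmon, bedtools 2.25.0 and BWA 0.7.12-r1039, with GRCm39, mm10 and hg19 as builds. What each did, the annotation release and whether counting used strand is not given in the sources used here, so reads of a gene and an overlapping antisense gene cannot be told apart. By GENCODE M21, Mcm7, Ccne2, Ccna2, Cdc20 and Kif20a overlap a protein-coding gene on the opposite strand, and Kif11, Cenpf and Top2a overlap a pseudogene or small RNA there. Gene coordinates are from GENCODE M21 (GRCm38), matched by gene ID, since the build of the counts is unclear.

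Estimated counts, rounded to integers, went into edgeR 4.0.16 (R 4.3.3; filterByExpr, TMM, robust quasi-likelihood F test). P-values were adjusted by Benjamini-Hochberg over 13318 genes, with a threshold of 0.05. RGECO replicate 4 was left out for its total. CPM values are per 1000000 counts of the tested genes, scaled by TMM. The common coefficient of variation was 25.2%, and a floor of 3 counts equals 0.246 to 0.525 CPM per library. No library counted as a copy: chi-square per gene was at least 7.61 in all 25 pairs within a line. Shares and ratios were compared by exact two-sided permutation of libraries. Alternatives were DESeq2 1.42.0, its size factors, no filter, all 12 libraries, each library left out, a replicate block, limma 3.58.1 on log2(TPM + 1 or 0.1), and covariates for depth, mitochondrial share and Malat1.

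The members, the gene lists and the tests were chosen with earlier results of these data known. Values in every library are given for genes past the threshold and for the genes of highest and lowest mean TPM in each phase. Genes from the other lists are named where they passed the threshold. Promoters came from RefSeq (GRCm38.p6), where 10 of 12 G1/S and 16 of 19 G2/M genes matched.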

Additional observations from a re-analysis of the deposited data

Results flagged for a closer look

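Of 86 groups of libraries checked for a single extreme value, 4 were marked, and chance marks about 1 in 20. WT replicate 3 had 39.8 CPM of Pcna, against 51.6 to 54.8 CPM in the other WT libraries, a gap of 0.787 of the range. RGECO replicate 5 had 45.0 CPM of E2f1, against 19.9 to 26.9 CPM in the other RGECO libraries. The same library, which has the fewest counts, had 11.2% of the summed Mcm2 to Mcm7 TPM in Mcm2 and 44.5% in Mcm6, against 18.2% to 20.7% and 23.1% to 29.2% in the others. In CPM its Mcm6 value of 38.0 lay inside the range of the other RGECO libraries, from 32.1 to 40.9, while in TPM it was 44.8 against 14.8 to 25.3.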

How the results depend on the processing

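The G2/M median stayed between -0.64 and -0.47 as each library was left out in turn, and on log2(TPM + 1), log2(TPM + 0.1) and log2(TPM + 1) with no filter it was -0.34, -0.37 and -0.34. Under those TPM settings the G1/S median was 0.18, 0.18 and 0.18, against medians over all genes of 0.09, 0.10 and -0.0023, so the G1/S median turned positive there. Left-out libraries gave G1/S medians of -0.08 to -0.04, 1 to 1 G1/S calls, 2 to 7 G2/M calls and 785 to 1140 calls over all genes. All genes called numbered 1674 with DESeq2, 626, 600 and 310 on the 3 TPM settings, 3133 with the mitochondrial share and 2771 with Malat1 as a covariate. G1/S calls numbered 0 with no filter on low counts, 4 with the mitochondrial share and 5 with Malat1 (2 higher in each). G2/M calls numbered 3 with all 12 libraries and 1, 1 and 0 on the TPM settings. Shares and ratios that passed numbered 0 in every setting run. The cause of these shifts was not tested.

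Deviations of same-numbered libraries had correlations of 0.0345, -0.149, -0.0806, -0.0343 and 0.285, with 1 of 5 over 0.1. Replicate 6 alone correlated best with its own number. From 5 pairs it cannot be decided whether libraries of the same number were handled together, and the labels do not say. With a replicate block, 777 genes, 0 G1/S genes and 1 G2/M gene (Cenpa) were called. With 5 pairs the smallest exact paired p for a share or ratio is 0.0625. The widest 95% intervals were those of Ccne2, Bub1 and Kif11, at 5.39 to 13.2 CPM in WT.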
